A study of Mus musculus with 8 samples.

Results

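The miR-181 family was examined through the guide-strand probes of mmu-miR-181a, mmu-miR-181b, mmu-miR-181c and mmu-miR-181d (mmu, mouse), chosen by name, which are 4 of the 1135 miRNA probes of the array. The guide strand is the one that is loaded into the silencing complex, and probes for the opposite (passenger) strand, written with a final *, are described separately. Liver RNA was hybridised to 8 arrays. The 4 control samples were from normally fed mice and the other 4 from mice whose feed lacked methionine and choline (MCD). Such feed brings on steatohepatitis in mice, and the animals also lose weight. The labels give 23 weeks of diet and no other treatment, whereas the methods give a shorter feeding time in male C57BL/6N mice bought as young adults. The 23 weeks may therefore be the age at the end of feeding rather than its length, which the sources do not settle. Nothing in the labels ties an array to a named mouse, so the spread behind each p-value is that between samples and may be technical. The liver-specific miR-122 was bright on every array, at intensities of 30938 to 40551 in control and 14535 to 18846 in MCD.

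Members of the miR-181 family bind target mRNAs through the same seed, the stretch near the 5′ end that pairs with the 3′ untranslated region. In developing T cells, miR-181a raises the sensitivity of the antigen receptor by repressing phosphatases of its signalling pathway. In human liver cancer, the family is known for its high expression in stem-like tumour cells, and miR-181b for repressing TIMP3, an inhibitor of metalloproteinases. Mouse miR-181a and miR-181b are each made from a hairpin on chromosome 1 and from another on chromosome 2, and miR-181c and miR-181d come from chromosome 8.

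The mature guide sequences (RefSeq, GRCm38.p6) are shown because the comparison turns on 4 closely similar miRNAs, with the shared seed, bases 2 to 8, in capitals.
miR-181a: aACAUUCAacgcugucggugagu
miR-181b: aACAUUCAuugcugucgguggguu
miR-181c: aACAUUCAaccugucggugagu
miR-181d: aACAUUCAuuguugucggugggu
Of 1679 mature mouse miRNA names in the RefSeq table, these 4 were the only ones with this seed. The grouping by sequence crossed the grouping by locus. miR-181a and miR-181c, of different loci, differed by 1 edit (a substitution, insertion or deletion of a base), and miR-181b and miR-181d by 2 edits, one of them the substitution C12U, counted from the 5′ end of miR-181b. By contrast, 4 edits separated miR-181a from miR-181b, including A9U, C10U and A21G counted from the 5′ end of miR-181a, and 5 edits separated miR-181c from miR-181d. The extent to which each probe also read its near neighbours was not tested.

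In GRCm38.p6, the hairpins of the chromosome 1 cluster lie at chr1:137966455-137966541 (Mir181a-1) and chr1:137966639-137966718 (Mir181b-1), 97 bases apart and overlapping no other gene of the RefSeq table. Those of the chromosome 2 cluster lie at chr2:38852735-38852810 (Mir181a-2) and chr2:38853830-38853918 (Mir181b-2), 1019 bases apart and inside the spans of Nr6a1, a nuclear receptor gene, and of its opposite-strand transcript Nr6a1os. The chromosome 8 cluster holds Mir181d at chr8:84178716-84178787 and Mir181c at chr8:84178873-84178961, 85 bases apart. The guide probes of miR-181a and miR-181b cannot tell the chromosome 1 hairpins from those on chromosome 2, since the mature sequences are identical.

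All 4 members gave weak signals. Spot intensities, the median of a spot's pixels in scanner units, ran from 262 to 338 for miR-181a, from 218 to 282 for miR-181b, from 216 to 292 for miR-181c and from 230 to 278 for miR-181d. The 1818 blank spots of an array averaged 203 to 225 units. The spot of miR-181a was brighter than at least 98.0% of the blank spots of its array on all 8 arrays, whereas on the least favourable array miR-181b exceeded 82.8% of them, miR-181c 79.8% and miR-181d 86.5%. Relative to the blank limit (mean plus 2 SD of the blank spots), miR-181a lay above it on 8 of 8 arrays, miR-181c on 6, and miR-181b and miR-181d on 5 each. A stricter limit, set in the same way from the spots of negative control probes, was passed by miR-181a on MCD 1, MCD 2 and MCD 3, by miR-181c on MCD 3, and by miR-181b and miR-181d on 0 of 8 arrays. This limit was 286 to 293 units on control arrays and 250, 281, 288 and 289 units on MCD 1 to 4. The 285 units of miR-181a on MCD 2 would not have passed the limit of any control array. The values below therefore describe miRNAs close to the background of this array.

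**Figure D1:**
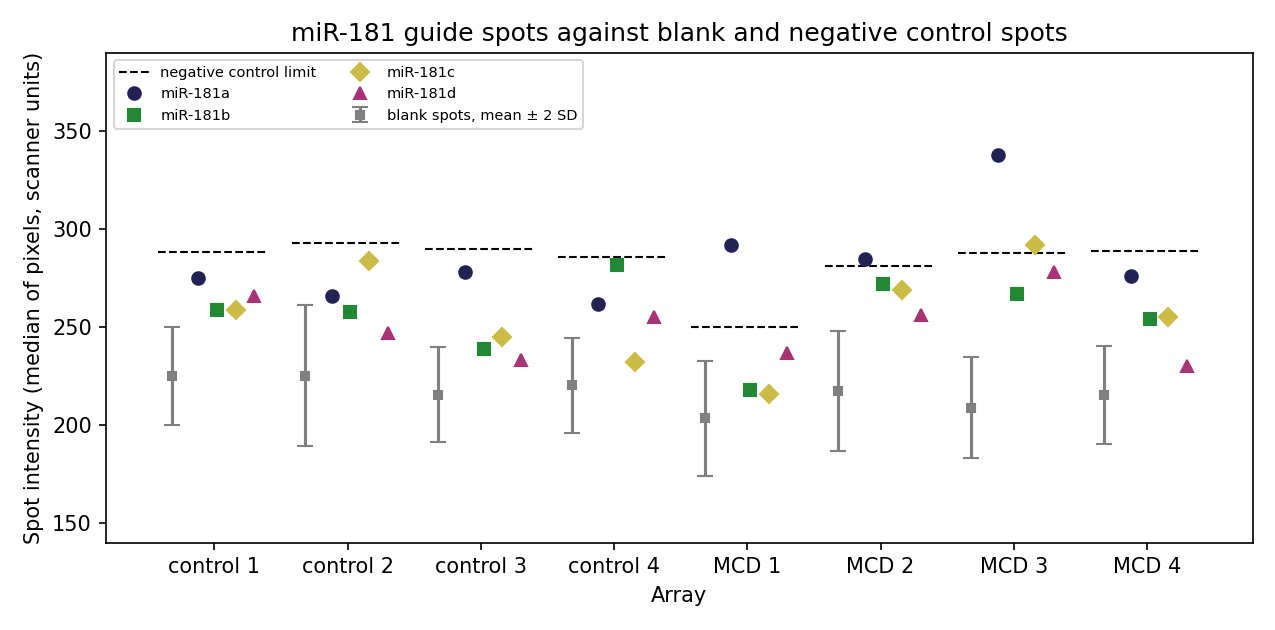
Spot intensity in scanner units of the 4 miR-181 guide probes on each of the 8 arrays, with the blank spots (grey, mean ± 2 SD) and the negative control limit (dashed, mean plus 2 SD of those spots). miR-181a lies above the grey range on every array and above the dashed line on MCD 1, MCD 2 and MCD 3. The dashed line is set per array and lies lowest on MCD 1 and MCD 2.

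Between the diets, miR-181a was the one member with separate groups, and its difference did not pass the threshold after adjustment. The spot intensities of mmu-miR-181a were 275, 266, 278 and 262 on control 1 to 4 and 292, 285, 338 and 276 on MCD 1 to 4. MCD 3 stood highest, and before normalization the lowest MCD array lay just under the highest control array. After background correction and quantile normalization, the log2 values were 7.03, 7.06, 7.12 and 6.94 in control and 7.36, 7.25, 7.49 and 7.14 in MCD. The groups no longer overlapped, although control 3 and MCD 4 were only just apart. The mean went from 7.04 ± 0.08 to 7.31 ± 0.15 (SD, n = 4), a log2 difference of 0.27 ± 0.10 (SE), or 1.21-fold with a 95% interval from 1.04 to 1.40. In limma the unadjusted p was 0.0198 and the adjusted p was 0.137 over the 1076 tested probes. The exact permutation p was 0.0286 (two-sided, n = 4 per diet), the smallest that 4 against 4 arrays can give. Over all tested probes, MCD arrays lay wholly above control arrays for 8.83% and the groups were separate in either direction for 15.1%. An unadjusted p under 0.05 with a higher MCD mean was seen for 12.5%. Among the 401 tested probes as dim as the members (mean log2 values from 6.88 to 7.17), MCD lay wholly above control for 5.74%. In that range 8.48% were higher without adjustment. miR-181a was thus 1 of 95 probes with MCD wholly above control among all 1076 tested, and 1 of 23 in that range.

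For miR-181b, which shares both of its clusters with miR-181a, no difference was detected. The log2 values of mmu-miR-181b were 6.93, 6.99, 6.74 and 7.24 in control and 6.71, 7.12, 7.07 and 6.94 in MCD. The lowest value was on MCD 1 and the highest on control 4, so the groups lay over each other. The means were 6.97 ± 0.21 and 6.96 ± 0.18 (SD, n = 4), and the log2 difference was -0.014 with a 95% interval from -0.29 to 0.26 (limma adjusted p = 0.974).

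miR-181c and miR-181d, the chromosome 8 pair, were likewise spread across both diets. The log2 values of mmu-miR-181c were 6.83, 7.21, 6.75 and 6.59 in control and 6.56, 7.02, 7.21 and 6.85 in MCD. This was the most variable member, with SDs of 0.26 and 0.28, and its highest values, on control 2 and MCD 3, were equal after rounding. Its log2 difference was 0.07 with a 95% interval from -0.28 to 0.41 (limma adjusted p = 0.867). The log2 values of mmu-miR-181d were 7.0, 6.87, 6.63 and 6.89 in control and 6.96, 6.93, 7.18 and 6.64 in MCD. Here too MCD 3 was highest, with control 3 and MCD 4 lowest, and the log2 difference was 0.08 with a 95% interval from -0.19 to 0.35 (limma adjusted p = 0.770).

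**Figure D2:**
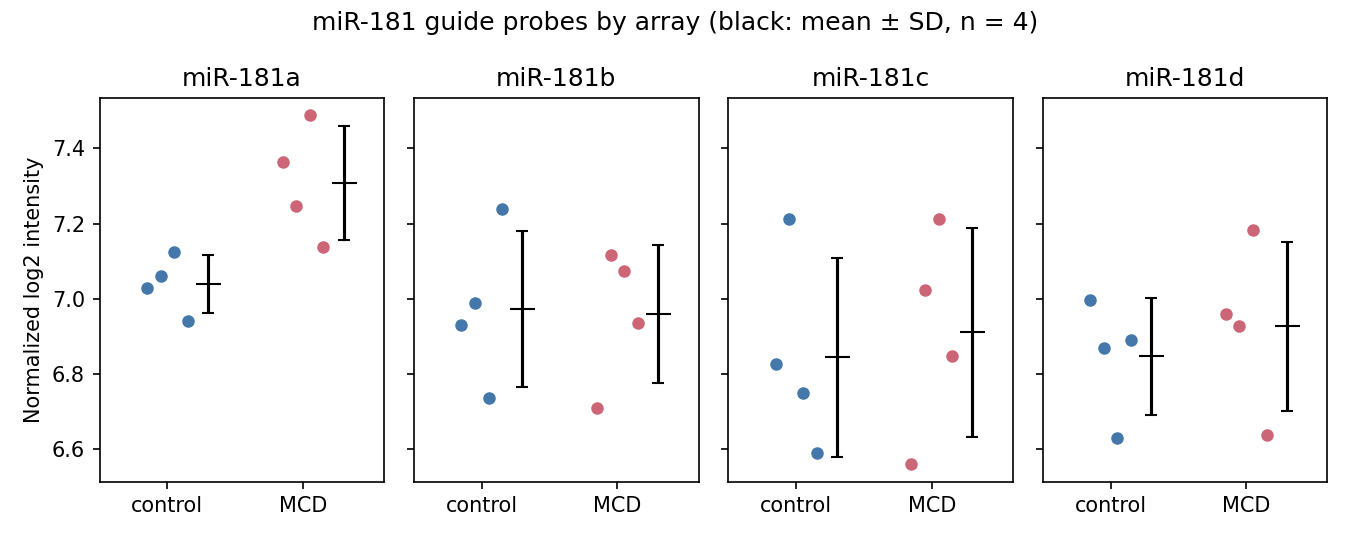
Normalized log2 intensity of each miR-181 guide probe on each array (points, 4 control in blue and 4 MCD in red), with the group mean ± SD in black (n = 4). The groups are separate for miR-181a, with means of 7.04 and 7.31, and overlap for the other members.

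Of the 4 members, 0 passed limma's adjusted threshold of 0.05, and 1, miR-181a, was past an unadjusted p of 0.05. The methods' t-test on the same values gave the same counts after and before adjustment. Over all 1076 tested probes, 10.2% passed limma's adjusted threshold in either direction. Among the 401 probes of the members' range, the share was 2.99%, and the smallest log2 difference called there was 0.36 in size. The upper ends of the 95% intervals were 0.26 for miR-181b, 0.41 for miR-181c and 0.35 for miR-181d, so on these values rises up to those sizes lie within the error. The offset of the background correction compresses differences of dim probes, and after subtraction of the blank mean without it the log2 differences were 0.019 for miR-181b, 0.50 for miR-181c and 0.19 for miR-181d, with limma adjusted p-values of 0.998, 0.709 and 0.902.

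Set out by cluster, the a/b pair and the c/d pair differed less in their response to diet than the arrays did among themselves. On each array the mean log2 value of miR-181c and miR-181d was subtracted from that of miR-181a and miR-181b. The result was 0.07, -0.02, 0.24 and 0.35 on control 1 to 4 and 0.28, 0.20, 0.08 and 0.29 on MCD 1 to 4. The groups overlapped, and every MCD value lay within the control range. The pair means changed by 0.13 ± 0.07 for a/b and 0.07 ± 0.13 for c/d, and the difference between these changes was 0.06 ± 0.10 (log2, SE, n = 4 per diet). No test was run on this difference, since the members were chosen with earlier results known. The a/b value joins unlike members, 0.27 for miR-181a and -0.014 for miR-181b.

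Passenger strands were used to look at single hairpins, because these sequences differ where the guides do not. Those of the miR-181a hairpins and of Mir181c are shown, as they tell chromosome 1, chromosome 2 and chromosome 8 apart by few bases (RefSeq, GRCm38.p6, without capitals because no part is singled out).
miR-181a-1*: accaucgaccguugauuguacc
miR-181a-2*: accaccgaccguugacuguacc
miR-181c*: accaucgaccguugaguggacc
From miR-181a-1*, counted from its 5′ end, miR-181a-2* differed by U5C and U16C and miR-181c* by U16G and U19G. Of 6 passenger probes on the array, 0 passed limma's threshold with or without adjustment, and the methods' t-test likewise passed 0 of 6. Over all tested probes, limma passed 10.2% in either direction with adjustment and 21.7% without. On chromosome 1, the log2 difference between MCD and control was 0.08 for miR-181a-1* (95% interval from -0.17 to 0.32) and 0.01 for miR-181b-1*. On chromosome 2, it was -0.07 for miR-181a-2* (95% interval from -0.31 to 0.16) and 0.08 for miR-181b-2*. Neither hairpin of miR-181a thus showed a passenger strand that was detectably higher in MCD, and each of these passenger probes exceeded the blank limit on all 8 arrays. The stricter negative control limit was passed on 0 arrays by miR-181a-1* and on 1 by miR-181a-2*, so both were close to background. That 1 array was MCD 1, where this limit was lowest. Whether each passenger probe reads only its own strand was not tested.

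On chromosome 8, miR-181d* was at 0.02, and miR-181c* had the most negative difference of the 10 family probes. The log2 values of miR-181c* were 6.85, 7.16, 6.76 and 6.97 in control and 6.74, 6.51, 6.93 and 6.65 in MCD. MCD 3 lay inside the control range while the other MCD arrays lay under it. The log2 difference was -0.23 with a 95% interval from -0.49 to 0.03 (limma adjusted p = 0.298). The spot was above the blank limit on 4 of 4 control arrays and on 1 of 4 MCD arrays, so its level in MCD was mostly not above background.

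**Figure D3:**
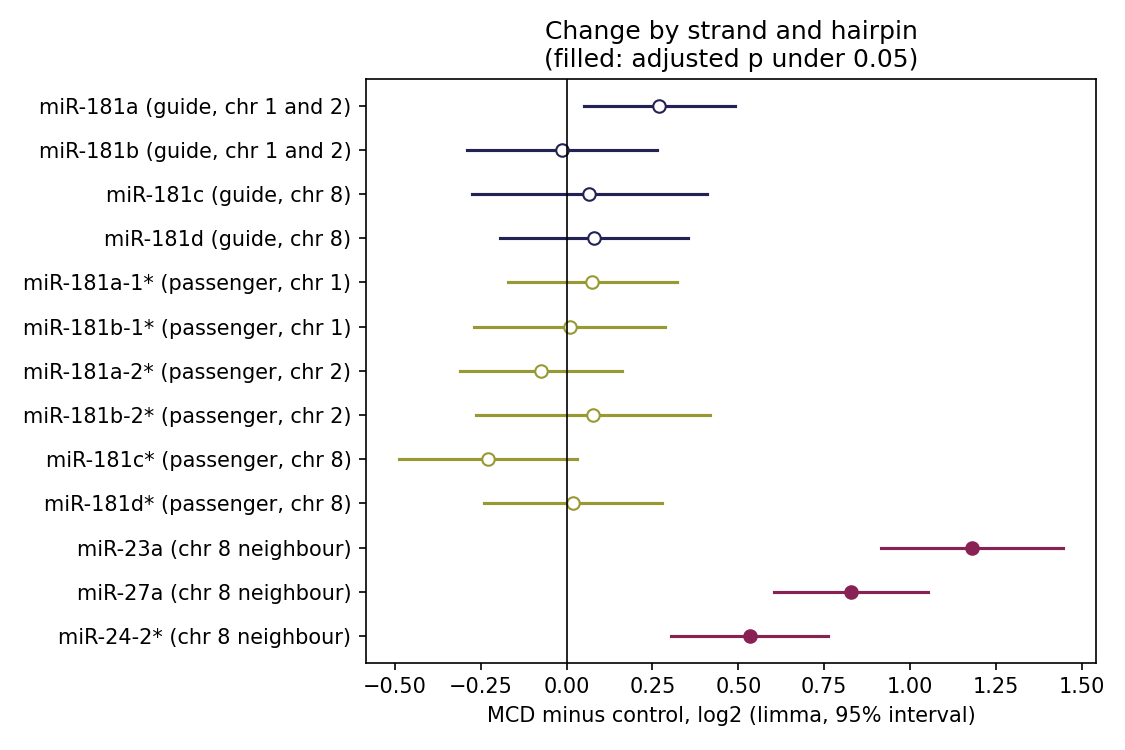
MCD minus control on the log2 scale for the guide and passenger probes of the miR-181 hairpins and for 3 probes of the neighbouring chromosome 8 cluster, with the limma 95% interval (n = 4 per diet). Open points did not pass an adjusted p of 0.05. The miR-181 values lie between -0.23 and 0.27, and the neighbours between 0.53 and 1.18. The offset of the background correction pulls the values of dim probes, such as those of miR-181, towards 0.

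A second cluster of hairpins, Mir23a, Mir27a and Mir24-2, begins 29556 bases from Mir181c on chromosome 8. Its probes were compared with those of miR-181c and miR-181d after their values had been seen. In MCD, miR-23a was higher by 1.18 ± 0.12 and miR-27a by 0.83 ± 0.10 on the log2 scale (SE, limma adjusted p = 3.67e-05 and adjusted p = 0.000200). Both have near-identical relatives from another chromosome, so their probes may read more than this cluster. The passenger strand miR-24-2* belongs to the Mir24-2 hairpin, and it was higher by 0.53 ± 0.11 (SE, limma adjusted p = 0.00531), with a 95% interval from 0.30 to 0.76. The interval of miR-181c, from -0.28 to 0.41, and that of miR-181d, from -0.19 to 0.35, overlapped the one for miR-24-2* and lay wholly below those of miR-23a, from 0.92 to 1.44, and miR-27a, from 0.60 to 1.05. Those intervals were fitted with the offset of the background correction, which pulls the differences of dim probes such as miR-181c and miR-181d towards 0. After subtraction of the blank mean, the log2 differences were 0.50 for miR-181c and 0.19 for miR-181d. The difference between the clusters was not tested.

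Several cell type markers moved between the same arrays, and in tissue RNA fewer cells of a type and less of the miRNA per cell cannot be told apart. Of 6 hepatocyte miRNAs, 5 were lower in MCD, and the summed spot intensity of the list was 41930 to 55379 in control and 21384 to 28070 in MCD. Most of that sum was miR-122, alone at 30938 to 40551 in control. The sums given here take spots without background subtraction, so every probe adds its background, and blank spots averaged 203 to 225 units. Of 8 leukocyte miRNAs, 4 were higher and 4 did not pass, with sums of 2412 to 2769 and 2590 to 3468. The log2 differences of these leukocyte miRNAs ran from -0.25 for miR-146a to 0.63 for miR-223, with a median of 0.25. Of 5 mesenchymal miRNAs 4 were higher (sums of 2145 to 2631 and 2998 to 6049), as were 1 of 2 endothelial (3181 to 4137 and 4025 to 6246) and 3 of 5 bile duct miRNAs (1317 to 1337 and 1825 to 3922). The blank limit was exceeded on all 8 arrays by 2 of the 5 bile duct miRNAs and 6 of the 8 leukocyte miRNAs, so dim probes weigh in those sums. Of 3 erythroid miRNAs 0 passed limma's adjusted threshold. Over all tested probes 5.76% were higher and 4.46% lower. The part of these cell types in the level of miR-181a was not tested.

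Array background also moved with diet. Around the miR-181a spot, the local background was 144 to 156 units on control arrays and 122 to 140 on MCD arrays. Over all miRNA spots, the median local background was 154 ± 5.91 in control and 133 ± 7.14 in MCD (SD, n = 4, exact permutation p = 0.0286, two-sided), and the blank spots averaged 222 ± 4.62 and 211 ± 6.44 units. Under the heading Cell, the scanner files gave 1 for every control array and 2 for every MCD array, so Cell number and diet cannot be told apart. Without any background correction, the log2 difference of miR-181a was 0.15 and its groups stayed separate (limma adjusted p = 0.125).

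The size of the miR-181a difference depended on how the background was handled and how the arrays were scaled, and its direction did not. In 24 other settings the difference was positive in 24, though changes of filter, block or test alone could not alter it. The difference was past the adjusted threshold in 1. That setting kept only the 319 probes above the blank limit on all 8 arrays and gave an adjusted p of 0.0468 for the same difference. Of these 319 probes, 52 were called higher and 49 lower, a larger share than in the reported setting. The unadjusted limma p of miR-181a there was 0.0147. On the authors' processed values, miR-181a had intensities of 48.9, 47.2, 57.9 and 41.1 in control and 87.4, 66.6, 107 and 57.3 in MCD. There the log2 difference was 0.67, and control 3 and MCD 4 overlapped slightly. On the authors' values limma gave an unadjusted p of 0.0147 and an adjusted p of 0.0903 over 573 probes (exact permutation p = 0.0571, two-sided). The paper lists miR-181a among its miRNAs upregulated in MCD, at a cut-off of 0.05 without correction for the number of probes. Subtracting the blank mean gave a log2 difference of 0.64. Without scaling the log2 difference was 0.29 and the groups overlapped (limma adjusted p = 0.254). With arrays scaled by the spike control spots the difference was 0.07 and the groups overlapped (limma adjusted p = 0.771). That scaling shifted the median difference over the tested probes by -0.24, so miR-181a stood 0.31 above the median, miR-181b at -0.0059, and miR-181c and miR-181d both at 0.09.

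**Figure D4:**
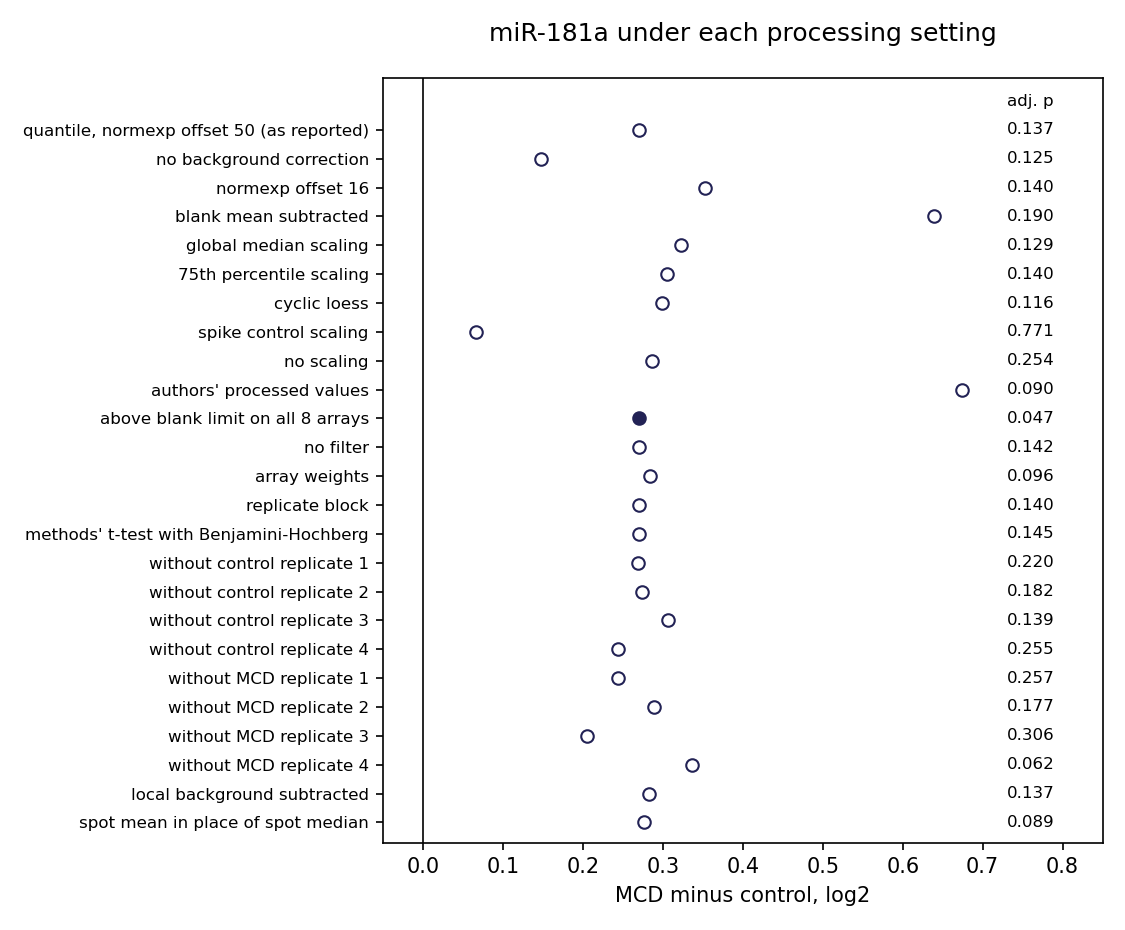
The log2 difference of miR-181a, MCD minus control, in the reported setting (top) and in 24 other settings, with limma's adjusted p, or that of the methods' t-test where named, at the right. The filled point marks the setting with an adjusted p under 0.05, and the values run from 0.07 to 0.67.

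The other members were not called in any setting that tested them. In 22 other settings each, miR-181b was positive in 6 and negative in 16, miR-181c was positive in 19 and negative in 3, and miR-181d was positive in 20 and negative in 2. Changes of filter, block or test alone could not alter these differences. For miR-181c and miR-181d 1 of the negative values came from spike control scaling, where both stood above the shifted median of all tested probes, and the remaining negative values came from leaving out an array. Adjusted p-values ran from 0.284 to 0.998 for miR-181b, from 0.503 to 0.973 for miR-181c and from 0.327 to 0.986 for miR-181d, and the groups overlapped in every one of these settings. Other probes with a like pattern were to be searched only for members that passed the negative control limit on 4 arrays or more. No member did, so none is named.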

How the data were processed

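Spot intensity and local background intensity of 3136 spots per array were deposited uncorrected, on a linear scale. Per the labels and methods, total RNA labelled with a miRCURY kit was hybridised to a Toray mouse miRNA chip and read with the maker's scanner and software. The labels name Hy5, whereas the columns carry the green wavelength. The authors also deposited processed intensity values. Tested against the scanner files, these were blank-subtracted spot values times 1 factor per array, with a median of 45, and dim probes left empty.

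In R 4.3.3, limma 3.58.1 was used for background correction (normexp, with an offset of 50 that pulls the differences of dim probes towards 0), and the log2 values of the 1135 miRNA probes were quantile-normalized. Tested probes were those whose spot exceeded the blank mean plus 2 SD on at least 4 of 8 arrays (1076 probes). All 4 members passed this filter. Diets were compared with limma (two-sided, no block, Benjamini-Hochberg over all tested probes) and exact permutation tests. The fits were tested on simulated data. The number of arrays limits the precision.

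Named miRNAs were the family's guide and passenger probes and the fixed marker lists. Members and lists were chosen with earlier results of these data known. Array names were matched to RefSeq names (guide to 5p, passenger to 3p), and 10 of 10 matched. Alternatives covered background correction, scaling, filters, tests, array weights, the replicate number as a block, each array left out, and the authors' values.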

Additional observations from a re-analysis of the deposited data

Results flagged for a closer look

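In the control group, the passenger probe miR-181b-2* had 1 array far from the rest. Control 2 stood at 6.43 on the log2 scale, while the other control arrays lay between 6.92 and 6.95. On that array the spot intensity was 215, below the blank mean of 225. Of 20 sets of 4 arrays examined (10 probes, 2 diets), this was the only one past the 95% limit of Dixon's gap test, which chance passes in about 1 in 20 sets. The probe's difference between diets was 0.08 with all arrays and is given above without a call.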

How the results depend on the processing

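The call of miR-181a was gained, at an unchanged difference of 0.27 (limma adjusted p = 0.0468), among probes above the blank limit on all 8 arrays. Fewer probes were tested there, and a larger share of them was called (52 higher and 49 lower of 319). Near 0, signs turned. For miR-181b the difference was 0.019 after blank subtraction, 0.0063 under global median scaling, 0.013 under cyclic loess and 0.050 with the spot mean in place of the median, a setting chosen after seeing the data, as was subtraction of the local background, which turned no sign. Spike control scaling, which shifted the median of all tested probes by -0.24, put miR-181c and miR-181d both at -0.16, or 0.09 above that median, so this sign came with the shift. Counts over all probes moved from 62 higher and 48 lower to 29 and 15 after blank subtraction, 34 and 93 under spike control scaling, and 34 and 24 by the methods' t-test with Benjamini-Hochberg adjustment. The lower count was 30 under global median and 31 under 75th percentile scaling. The cause of these moves was not tested.

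Leaving out 1 array at a time gave 0.21 to 0.34 for miR-181a (adjusted p from 0.0621 to 0.306), -0.094 to 0.076 for miR-181b, -0.033 to 0.19 for miR-181c and -0.0055 to 0.18 for miR-181d, with no call gained. The sign turned for miR-181b without control 4 (0.076) or MCD 1 (0.069), for miR-181c without control 4 (-0.018) or MCD 3 (-0.033), and for miR-181d without MCD 3 (-0.0055). The difference between the pairs ran from -0.0025 to 0.12, higher counts from 45 to 70 and lower counts from 28 to 48. The lower count fell by more than 1.5 times without control 1 (28), control 3 (31), control 4 (28) or MCD 3 (30).

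Labels give both diets the replicate numbers 1 to 4. Deviations of same-numbered arrays from their group means correlated at 0.076, 0.095, -0.0069 and 0.064, none over 0.1. Control 1, control 2 and control 4 correlated best with their own number, a hint from the data and not from the design, and control 3 with MCD 1, so pairing was not established. With the replicate number as a block, 67 probes were higher and 51 lower, and miR-181a had an adjusted p of 0.140. No slide name was found in the scanner files, so a slide block was not run. Under the negative control filter no member was tested, and miR-181b, miR-181c and miR-181d were not fitted on the authors' values, which were present on 7, 6 and 6 of 8 arrays, or among probes above the blank limit on all arrays. Signal close to the blanks limits all 4 members.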
